A study of Mus musculus with 23 samples.

Results

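The genes followed here are 10 that glucocorticoid hormone is known to control or that control the hormone's action: Nr3c1, Hsd11b1, Fkbp5, Tsc22d3, Zbtb16, Sgk1, Errfi1, Mt1, Mt2 and Cdkn1a. They were chosen by symbol from the 39179 genes of the deposited table. All 10 were present, and all 10 passed the filter on low values that left 14896 genes for testing. RNA came from mesenteric arteries, the resistance vessels that feed the gut, of male C57BL/6J mice aged 10 to 12 weeks. Angiotensin II (Ang II), a hormone that constricts vessels and raises blood pressure, was infused under the skin by osmotic minipump at 1000 ng per kg and minute for 7 days (n = 6 libraries) or 14 days (n = 5). Control mice had sham surgery and were taken at 7 days (n = 6) or 14 days (n = 6). No group in the labels received a glucocorticoid, and the labels give no hormone level and no hour of tissue collection, so the name of the set rests on what is known of the genes and not on a treatment.

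Glucocorticoids enter cells freely and bind the glucocorticoid receptor, which then moves to the nucleus and binds palindromic response elements in DNA. Cells tune the signal before and after the receptor: 11beta-hydroxysteroid dehydrogenase type 1 regenerates active hormone inside the cell, and Fkbp5, a co-chaperone induced by the receptor, lowers the receptor's affinity for hormone. Glucocorticoid secretion follows the day and rises with stress. In arteries the hormone is known to raise the response to pressor agents.

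The 23 libraries held 4471038 to 21509283 reads, with group means of 8898834 ± 4893066 for 7-day sham (SD, n = 6), 13848268 ± 4742944 for 7-day Ang II (n = 6), 14214829 ± 3713039 for 14-day sham (n = 6) and 18587447 ± 2498606 for 14-day Ang II (n = 5). Values are on the authors' normalised scale, a read count divided by a factor for each library. The fewest reads behind any value of the 10 genes were 78, for Cdkn1a. Smooth muscle markers were abundant in every library, with 7 markers summing to between 4853 and 8394, and 6 endothelial markers summed to between 976 and 1381. Pancreatic acinar markers were higher still, at 50030 to 212800 over 10 genes, and 8 of the 10 were lower with Ang II at 14 days. Of 6 fibroblast markers, 3 were higher with Ang II at 7 days and 3 at 14 days. In whole arteries, fewer cells of a type and less RNA per cell cannot be told apart.

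None of the 10 genes differed between Ang II and sham at 7 days by limma with Benjamini-Hochberg adjustment over all genes tested, where 0.819% of all genes did (0.752% higher and 0.0671% lower). None passed at 14 days either, where 6.06% of all genes did (4.04% higher and 2.01% lower). At an unadjusted p under 0.05 the counts were 0 of the 10 genes at 7 days and 1 at 14 days, beside 9.28% and 24.6% of all genes. The edgeR quasi-likelihood test and DESeq2 on recovered reads each called 0 of the 10 at 7 days and 1 at 14 days. Over all genes edgeR called 110 at 7 days and 1099 at 14 days, and no share is given here for either tool. The 1 gene of the 10 was Hsd11b1, whose limma test at 14 days missed the threshold narrowly. No gene of the 10 had groups without overlap at 7 days, where 1.22% of all genes did (1.08% higher and 0.141% lower), or at 14 days, where 3.65% did (2.36% higher and 1.29% lower). The spread within groups lay between the 87.4th and the 97.9th percentile of all tested genes for 7 of the 10.

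**Figure D1:**
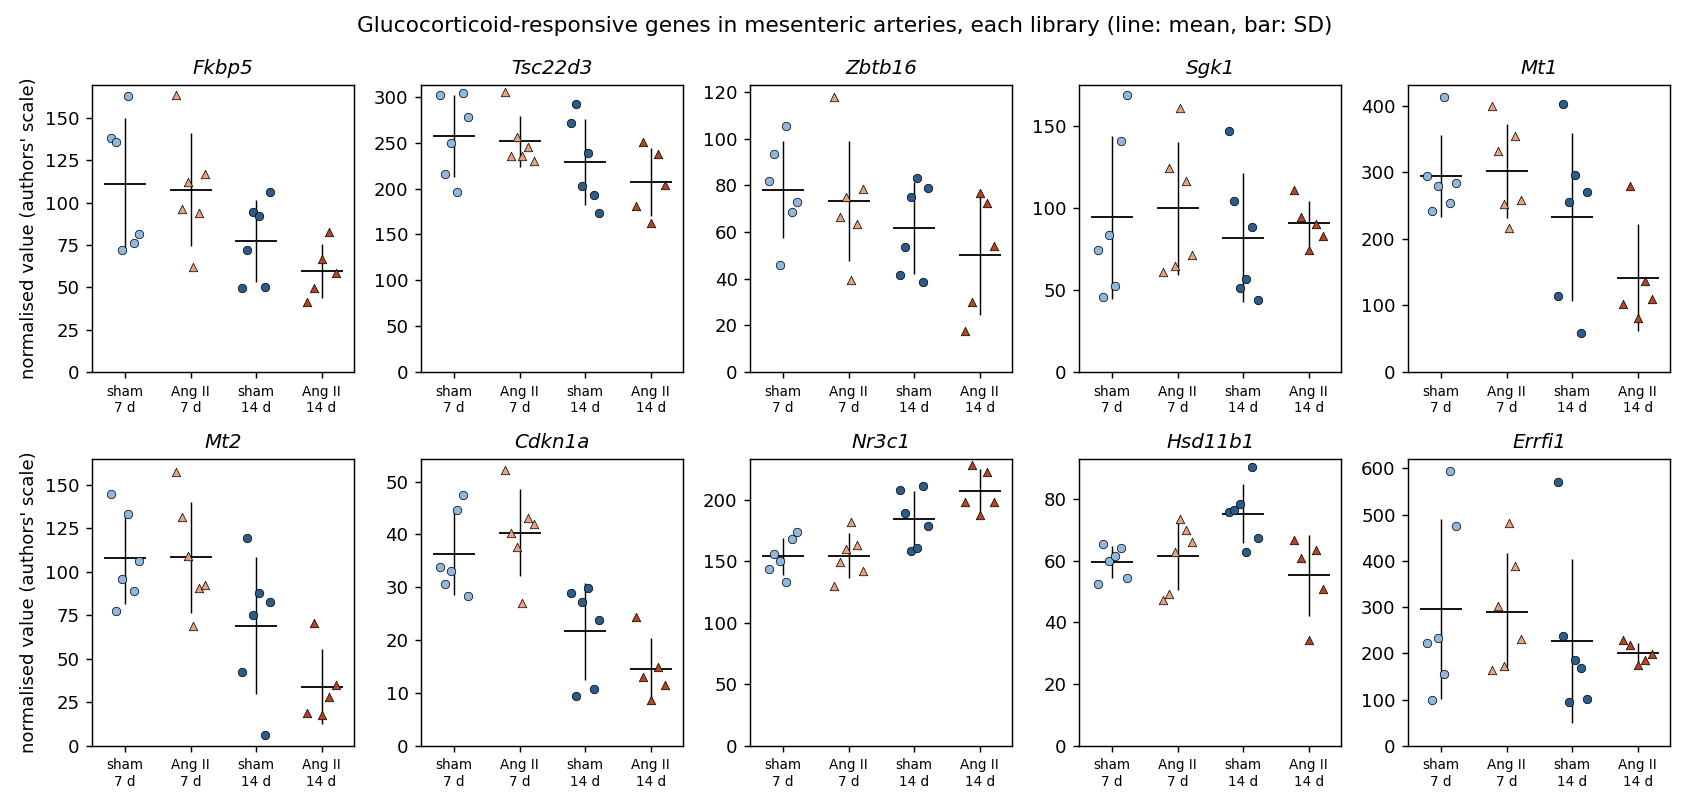
Normalised value (authors' scale, y axis from 0) of each gene in each of the 23 libraries, by treatment and time. Each point is 1 library, the line is the group mean and the bar is 1 SD, and in every panel the Ang II points overlap those of sham at the same time.

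Levels per length of exon set the genes in order. The length is the union of all annotated exons, so the order depends on the annotation. For Mt1 this union (1246 bases) covers the whole gene, unlike that of Mt2 (588 bases), so the Mt1 level may come out low. In 7-day sham arteries the mean normalised value per exon kilobase was 236 ± 49.5 for Mt1 and 184 ± 44.6 for Mt2, small cysteine-rich proteins that bind zinc and copper (SD, n = 6). Errfi1 followed at 82.7 ± 54.3 and Tsc22d3 at 59.3 ± 10.3. Nr3c1 (20.1 ± 1.97), Sgk1 (19.2 ± 10.1), Zbtb16 (14.8 ± 3.94), Hsd11b1 (14.0 ± 1.22), Fkbp5 (11.7 ± 4.13) and Cdkn1a (10.2 ± 2.20) made up the lower range. Neighbours in this order lay closer together than the sum of their SDs, except Mt2 above Errfi1 and Tsc22d3 above Nr3c1.

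Nr3c1 encodes the glucocorticoid receptor itself. It was the steadiest of the 10 genes, with a residual SD within groups of 0.156 on the log2 scale, at the 17.6th percentile of all tested genes, whose median was 0.244. Its normalised value ran from 134 through a median of 153 to 174 in 7-day sham and from 130 through 155 to 182 in 7-day Ang II. The groups overlapped almost fully, with a log2 difference of 0.00 ± 0.09 (SE) and an adjusted p of 0.999. At 14 days sham ran from 158 through 184 to 212, and the 5 infused libraries read 198, 229, 188, 223 and 199. Of the 5 infused libraries, 2 lay above every sham library, and the log2 difference of 0.17 ± 0.10 had an adjusted p of 0.275. Sham arteries at 14 days were 0.25 ± 0.09 above sham at 7 days on the log2 scale, with 4 of 6 libraries above all of the earlier ones, and this did not pass (adjusted p = 0.577).

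Hsd11b1, the enzyme that regenerates active glucocorticoid, lies on chromosome 1 (193221634 to 193264075, minus strand; GRCm38, the mm10 assembly, as are the positions of the other genes). In 14-day sham arteries its normalised value ran from 62.7 through a median of 76.2 to 90.3. The 5 infused libraries read 66.8, 60.9, 34.2, 63.6 and 50.9, of which 3 lay below every sham library. The log2 difference was -0.47 ± 0.14, which is 0.722-fold, with an adjusted p of 0.0514. It passed with TMM scaling of recovered reads (adjusted p = 0.0477), with edgeR (0.0461) and with DESeq2 (0.0223), and also when library 1 (0.0300) or library 2 (0.0282) of 14-day Ang II was left out. Over all alternatives that gave one, the adjusted p ranged from 0.0223 to 0.238, and it was 0.119 with only the 2 groups compared. Without library 3 of 14-day Ang II, the lowest of all 23, the log2 difference was -0.31 and the adjusted p 0.179.

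At 7 days Hsd11b1 showed no such difference. Sham ran from 52.5 through 60.7 to 65.3 and Ang II from 47.2 through 64.5 to 73.5, with a log2 difference of 0.03 ± 0.14 and an adjusted p of 0.975. The difference between the responses at the 2 times was -0.50 ± 0.20 on the log2 scale and did not pass (adjusted p = 0.509). No gene among all 14896 passed for that contrast (0%), and 9.37% of them had an unadjusted p under 0.05. Sham arteries themselves stood at 59.6 ± 5.20 at 7 days and 75.2 ± 9.58 at 14 days, with 5 of 6 later libraries above all earlier ones (log2 difference 0.33 ± 0.14, adjusted p = 0.625). Hsd11b1 followed the fibroblast markers from library to library, as set out with the relations to other measures.

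Around the receptor, a list of 17 cofactors, chaperones and steroid-handling genes had 16 tested members. None was called at 7 or 14 days, and the median log2 difference was -0.02 at 7 days and 0.03 at 14 days, beside 0.00 and 0.03 over all genes. The coactivators Ncoa3 and Ncoa2 came closest, with log2 differences of 0.30 ± 0.09 (adjusted p = 0.0522) and 0.29 ± 0.09 (adjusted p = 0.0572) at 14 days. Hsd11b2, the enzyme that inactivates the hormone, was too low to be tested.

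Fkbp5 lies on chromosome 17 (28399094 to 28517527, minus strand). Its normalised value ran from 72.0 through 109 to 163 in 7-day sham and from 62.1 through 104 to 163 in 7-day Ang II. These groups covered the same range. Sham at 14 days ran from 49.4 through 81.9 to 106, and the infused libraries read 41.1, 49.5, 66.8, 82.5 and 58.7. Only library 1 of the infused group lay below all sham libraries, and the log2 difference was -0.35 ± 0.27 (adjusted p = 0.436).

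Zbtb16, a zinc finger transcription factor strongly induced by glucocorticoids in many cell types, lies on chromosome 9 (48654297 to 48836222, minus strand). It ran from 45.8 through 77.5 to 106 in 7-day sham and from 39.5 through 70.7 to 118 in 7-day Ang II, with full overlap. The 14-day sham libraries ran from 38.7 through 64.4 to 83.1, and the infused libraries read 17.7, 29.9, 76.6, 72.3 and 54.2. The infused group was split, with libraries 1 and 2 below all sham libraries and the others within the sham range. Its log2 difference was -0.43 ± 0.34 (adjusted p = 0.452), and it was -0.82 among the 7 libraries of both groups whose numbers begin with 26.

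Tsc22d3 encodes GILZ, an anti-inflammatory leucine zipper protein induced by the receptor, on the X chromosome (140539528 to 140600659, minus strand). It varied little beside Fkbp5 and Zbtb16, with a residual SD of 0.247 on the log2 scale. Values ran from 197 through 264 to 304 in 7-day sham and from 230 through 241 to 306 in 7-day Ang II. They ran from 173 through 221 to 293 in 14-day sham, and the 14-day infused libraries read 181, 251, 162, 238 and 204. The groups overlapped at both times, with log2 differences of -0.02 ± 0.14 (adjusted p = 0.981) and -0.14 ± 0.14 (adjusted p = 0.579). Among the 7 libraries of 14 days whose numbers begin with 26 it was -0.36.

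Sgk1, a kinase induced by glucocorticoids and by mineralocorticoids that acts on ion channels and transporters, lies on chromosome 10 (21882184 to 21999903, plus strand). RefSeq gives it 6 promoter windows of 250 bases before to 50 bases after a start. The window at chr10:21993640-21993939 (GRCm38.p6, plus strand) is shown because it holds a full palindrome of the kind the receptor binds, with the core ACANNNTGT in capitals.

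Sgk1: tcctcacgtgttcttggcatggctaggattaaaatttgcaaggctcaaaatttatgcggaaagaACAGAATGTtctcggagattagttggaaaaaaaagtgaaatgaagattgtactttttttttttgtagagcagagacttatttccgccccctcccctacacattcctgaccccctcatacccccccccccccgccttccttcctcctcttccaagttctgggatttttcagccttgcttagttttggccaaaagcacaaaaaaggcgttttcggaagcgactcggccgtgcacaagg

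The core ACANNNTGT, which reads the same on both strands, was in 2 of the 6 Sgk1 windows and in 6.85% of 32851 mouse promoters of the same length. The whole consensus palindrome of the glucocorticoid response element, which extends the core by 3 bases on each side and was searched for after the core had been found here, was in only 3 of those promoters (0.00913%), of which the window above is 1. It contains the core, so the matches overlap. Among the other genes whose windows were searched, Mt1 held the core once and Mt2, Fkbp5, Tsc22d3, Cdkn1a, Hsd11b1 and Errfi1 did not hold it in these windows. The E-box CACGTG, the sequence bound by clock factors, was in 7.15% of all promoters, once in the Fkbp5 window and once in the Sgk1 window above. A match describes the sequence and is not a measured binding site.

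Sgk1 varied widely inside every sham group. It ran from 45.9 through 79.0 to 169 in 7-day sham and from 60.8 through 94.0 to 161 in 7-day Ang II. Later sham libraries ran from 44.1 through 72.7 to 147, and the infused libraries read 111, 94.6, 74.4, 90.6 and 82.8. The infused libraries thus fell inside the sham range, and the log2 difference was 0.15 ± 0.33 at 7 days (adjusted p = 0.953) and 0.26 ± 0.35 at 14 days (adjusted p = 0.672).

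Errfi1, a feedback inhibitor of the EGF receptor, lies on chromosome 4 (150853919 to 150868892, plus strand). It had the same shape and more spread, with a residual SD of 0.771 on the log2 scale, at the 96.9th percentile. Values ran from 98.4 through 228 to 594 in 7-day sham, from 163 through 266 to 482 in 7-day Ang II and from 94.5 through 177 to 572 in 14-day sham. The 14-day infused libraries read 228, 218, 175, 186 and 198, inside the sham range. Log2 differences were 0.12 ± 0.43 at 7 days (adjusted p = 0.971) and 0.11 ± 0.45 at 14 days (adjusted p = 0.905), and the sign at both times was negative with edgeR (-0.03 and -0.19). Among 10 tested genes of the EGF receptor axis, Ereg, a ligand of that receptor, was higher at 14 days (log2 difference 1.36 ± 0.30, adjusted p = 0.00999) and reached 1.12 ± 0.28 at 7 days (adjusted p = 0.0580).

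Mt1 and Mt2 lie side by side on chromosome 8, Mt1 at 94179082 to 94180327 and Mt2 at 94172664 to 94173568, both on the plus strand. Both are known to be induced by glucocorticoids and by metals. Their promoter windows are shown because the 2 genes moved together, with the core of the metal response element in capitals (TGCGCNC or TGCACNC on either strand). The positions are chr8:94178839-94179138 for Mt1 and chr8:94172368-94172667 for Mt2 (RefSeq, GRCm38.p6, plus strand).
Mt1: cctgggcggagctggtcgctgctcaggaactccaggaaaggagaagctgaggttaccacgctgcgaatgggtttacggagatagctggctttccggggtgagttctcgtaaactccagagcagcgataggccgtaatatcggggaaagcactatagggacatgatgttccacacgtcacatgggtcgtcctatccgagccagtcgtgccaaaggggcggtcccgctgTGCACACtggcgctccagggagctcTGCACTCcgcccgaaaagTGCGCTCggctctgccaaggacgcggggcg
Mt2: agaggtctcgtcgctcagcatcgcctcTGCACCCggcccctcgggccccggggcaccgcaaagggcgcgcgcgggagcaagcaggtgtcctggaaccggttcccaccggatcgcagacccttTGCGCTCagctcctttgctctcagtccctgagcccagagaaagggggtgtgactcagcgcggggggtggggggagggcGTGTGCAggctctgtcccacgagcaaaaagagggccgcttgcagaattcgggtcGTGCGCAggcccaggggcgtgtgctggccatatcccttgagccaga

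The Mt1 window held 1 TGCGCNC and 2 TGCACNC, and the Mt2 window held 2 of each. Either form was in 25.7% of all promoters of this length, 3 or more were in 1.97% and 4 or more in 0.517%.

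The metallothioneins were steady at 7 days and scattered at 14 days. Mt1 ran from 241 through 282 to 414 in 7-day sham and from 216 through 295 to 399 in 7-day Ang II, with a log2 difference of 0.03 ± 0.36 (adjusted p = 0.991). At 14 days sham read 115, 403, 255, 296, 59.0 and 270, and the infused libraries read 102, 280, 80.7, 136 and 109. Libraries 1 and 5 of sham and all infused libraries except library 2 fell below every library of day 7. The log2 difference at 14 days was -0.61 ± 0.38 (adjusted p = 0.329).

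The same libraries were low for Mt2. At 7 days sham ran from 77.5 through 101 to 145 and Ang II from 68.9 through 101 to 158, with a log2 difference of -0.01 ± 0.50 (adjusted p = 0.997). At 14 days sham read 42.3, 120, 75.4, 88.0, 6.42 and 82.7, and the infused libraries read 18.6, 70.5, 17.6, 28.1 and 34.8. Library 5 of sham was the lowest of all 23 and lay 24.5-fold under the highest, library 1 of 7-day Ang II. Every infused library was below 4 of the 6 sham libraries, and the log2 difference of -0.79 ± 0.53 had an adjusted p of 0.365. It was -1.40 among the 7 libraries whose numbers begin with 26. Without library 5 of 14-day sham the log2 difference was -1.37 and the adjusted p 0.0194, and over all alternatives the adjusted p ran from 0.0194 to 0.642.

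None of the 6 tested genes of a list of other zinc handling and metal response genes was called at either time, and the median log2 difference was -0.03 at 7 days and 0.13 at 14 days. Mtf1, the factor that binds metal response elements, had a log2 difference of 0.18 ± 0.12 at 14 days (adjusted p = 0.361). Mt1 and Mt2 are closely related copies, so reads may have been divided between them. Mt2 and Cdkn1a each have an annotated gene on the opposite strand over their exons, Gm45774 and AC167363.2, and neither of these is in the deposited table. The strand setting of the counting is not given in the sources used here, so the values of Mt2 and Cdkn1a are uncertain to that extent.

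Cdkn1a encodes p21, an inhibitor of cyclin-dependent kinases, on chromosome 17 (29090976 to 29100727, plus strand). It is a target of p53 and is also induced by glucocorticoids. Values ran from 28.3 through 33.5 to 47.6 in 7-day sham and from 27.1 through 41.1 to 52.2 in 7-day Ang II, with a log2 difference of 0.15 ± 0.27 (adjusted p = 0.937). At 14 days sham read 28.8, 9.50, 27.1, 29.8, 10.7 and 23.8, and the infused libraries read 24.4, 13.1, 8.69, 14.9 and 11.6. Both groups were split into a higher and a lower set at 14 days, and the log2 difference was -0.51 ± 0.28 (adjusted p = 0.273). Of 10 other p53 targets, Zmat3 was higher at 14 days (log2 difference 0.67 ± 0.19, adjusted p = 0.0398) and none was lower.

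**Figure D2:**
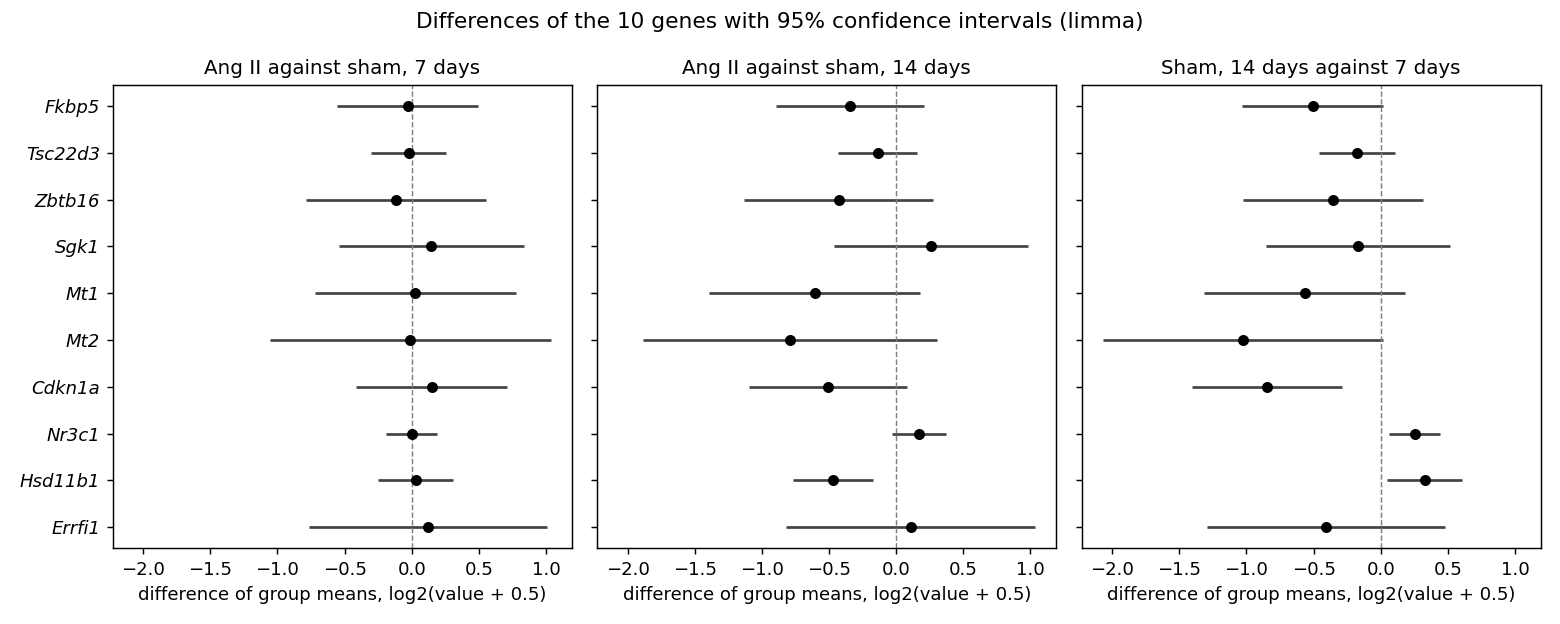
Differences of group means on the log2(value + 0.5) scale with 95% confidence intervals from limma, for Ang II against sham at each time and for the 2 sham groups. At 7 days every point lies between -0.11 and 0.15, at 14 days 7 of 10 points are below 0, and only the Hsd11b1 interval there leaves out 0, before adjustment.

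As a group, the 10 genes had a median log2 difference of 0.01 at 7 days, beside 0.00 over all genes, and of -0.39 at 14 days, beside 0.03. At 14 days 7 of the 10 were lower on average with Ang II and 3 (Sgk1, Nr3c1 and Errfi1) were higher, and none of these 10 differences passed. The edgeR and DESeq2 fits put Errfi1 below 0 as well. A list of 20 other known glucocorticoid targets, 19 of them tested, was split at 14 days, with 11 above 0 and 8 below. Its median log2 difference was 0.04 at 7 days with 0 called, beside 0.819% of all genes. At 14 days the median was 0.12 with 1 called, beside 6.06% of all genes. The genes named next are among those with the smallest p at 14 days, and all lay above 0. The called gene was Irs2, an adaptor of the insulin receptor, at 19.4 ± 6.93 against 11.4 ± 2.22 (log2 difference 0.71 ± 0.20, adjusted p = 0.0391, all 5 infused libraries above all sham libraries). Per1, which belongs both to the glucocorticoid targets and to the clock, had a log2 difference of 1.17 ± 0.41 (adjusted p = 0.0865), and the phosphatase gene Dusp1 had 0.86 ± 0.35 (adjusted p = 0.135).

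Sham arteries taken at 14 days were compared with those taken at 7 days, which share no libraries. None of the 10 genes passed, and neither did any of the 14896 genes tested (0%). At an unadjusted p under 0.05 there were 3 of the 10, Cdkn1a, Nr3c1 and Hsd11b1, beside 7.57% of all genes. With edgeR and DESeq2, 0 of the 10 were called, and no share over all genes is given for either tool. No gene of the 10 had groups without overlap, beside 0.510% of all genes (0.316% higher and 0.195% lower). Cdkn1a stood at 36.4 ± 7.83 at 7 days and 21.6 ± 9.16 at 14 days (log2 difference -0.85 ± 0.27, adjusted p = 0.551), with 4 of 6 later libraries below all earlier ones. Mt2 was 108 ± 26.3 and then 69.1 ± 39.5 (-1.02 ± 0.50, adjusted p = 0.655). Fkbp5 was 111 ± 39.1 and then 77.3 ± 24.1 (-0.51 ± 0.25, adjusted p = 0.661). The median over the 10 genes was -0.38, beside -0.01 over all genes, and over the 19 other targets -0.26, with 15 of the 19 below 0.

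For 7 of the 10 genes the spread between libraries of the same group was wide. Besides Errfi1, the residual SD on the log2 scale was 0.900 for Mt2 (97.9th percentile of all tested genes), 0.656 for Mt1 (95.3rd), 0.603 for Sgk1 (94.2nd), 0.586 for Zbtb16 (93.8th), 0.497 for Cdkn1a (89.5th) and 0.464 for Fkbp5 (87.4th). Hsd11b1 (0.252) and Tsc22d3 (0.247) lay near the median of 0.244, and Nr3c1 (0.156) lay below it.

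Part of the spread was shared. With group means removed, 12 of the 45 pairs of genes were correlated over the 23 libraries at an adjusted p under 0.05 (Pearson, permutation within groups, Benjamini-Hochberg over the 45 pairs), 6 positively and 6 negatively. The share of pairs that pass among all tested genes was not computed, so the 12 have no background beside them. The 12 include Mt1 with Mt2, whose libraries formed clusters and which is described separately. By Spearman correlation 11 passed, all of them among the 12. Fkbp5 and Zbtb16 rose and fell together (r = 0.87, rho = 0.885, adjusted p = 0.00015), and so did Sgk1 and Errfi1 (r = 0.938, rho = 0.941, adjusted p = 0.00015). Their unadjusted permutation p of 1e-05 is the smallest the resamples can give. Without the 2 libraries farthest from the median of the x axis, r was 0.837 for the former pair and 0.925 for the latter.

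These 2 pairs ran opposite to each other. Fkbp5 was low where Sgk1 was high (r = -0.817, rho = -0.807, adjusted p = 0.00034, and -0.783 without the 2 farthest libraries). Fkbp5 with Errfi1 gave r = -0.739 (rho = -0.762, adjusted p = 0.0013), Zbtb16 with Sgk1 gave -0.614 (rho = -0.683, adjusted p = 0.0018) and Zbtb16 with Errfi1 gave -0.508 (rho = -0.628, adjusted p = 0.0095). Without the 2 farthest libraries these were -0.701, -0.601 and -0.512. Nr3c1 went with Sgk1 (r = 0.709, rho = 0.69, adjusted p = 0.005) and Errfi1 (r = 0.61, rho = 0.605, adjusted p = 0.025), and against Fkbp5 (r = -0.706, rho = -0.7, adjusted p = 0.0051) and Zbtb16 (r = -0.554, rho = -0.638, adjusted p = 0.029), and without the 2 farthest libraries these were 0.643, 0.625, -0.612 and -0.651. Library 6 of 7-day sham had the highest Sgk1 of all 23, 169, with Fkbp5 at 81.5, and library 1 of 7-day Ang II had the highest Fkbp5, 163, with Sgk1 at 60.8. The weakest of the 12, Nr3c1 with Hsd11b1 (r = 0.536, adjusted p = 0.03), did not pass by Spearman correlation (rho = 0.504, adjusted p = 0.068), and r was 0.439 without the 2 farthest libraries.

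**Figure D3:**
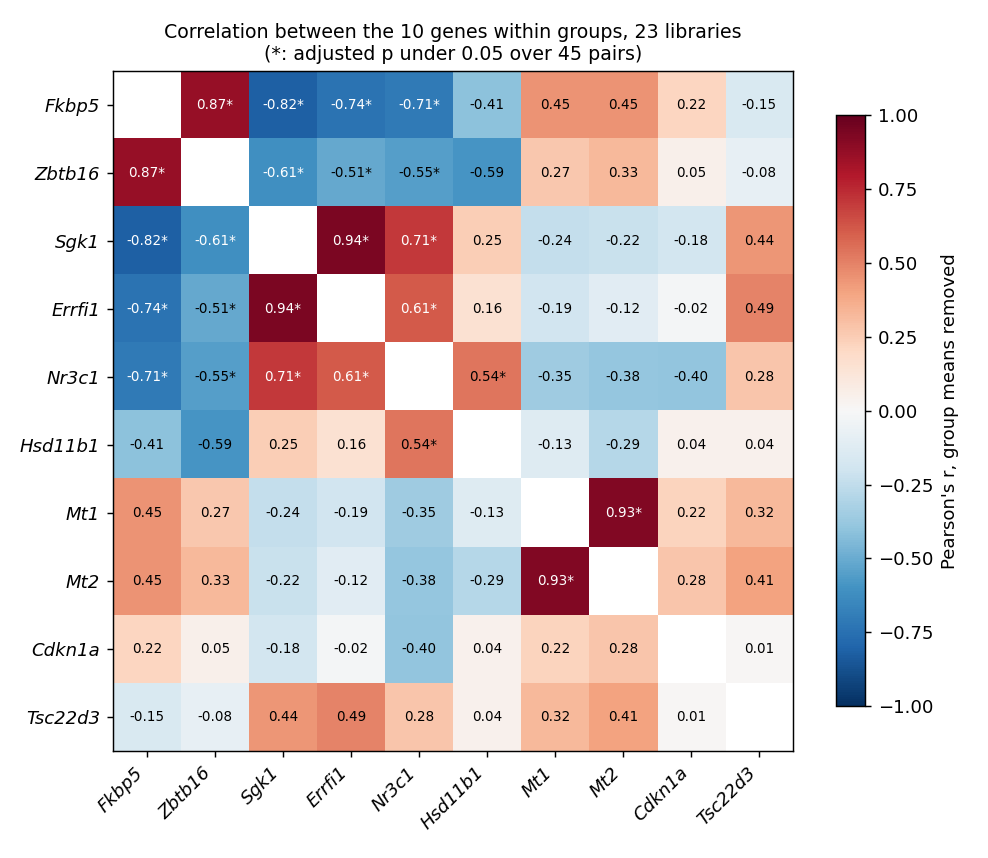
Pearson correlation of each pair of genes over 23 libraries on the log2(value + 0.5) scale with group means removed, coloured from -1 (blue) to 1 (red), with stars at an adjusted p under 0.05 over 45 pairs. Sgk1 with Errfi1 is at 0.938, Fkbp5 with Zbtb16 at 0.87 and Fkbp5 with Sgk1 at -0.817, and the cell of Mt1 with Mt2 pools 2 clusters of libraries and is not read as a correlation.

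The pairs were followed at each time, over 12 libraries at 7 days and 11 at 14 days, with adjustment over 90 correlations by permutation. Fkbp5 with Zbtb16 gave r = 0.922 (rho = 0.944, adjusted p = 0.0036) at 7 days and 0.877 (rho = 0.8, adjusted p = 0.0042) at 14 days. Sgk1 with Errfi1 gave 0.961 (rho = 0.965, adjusted p = 0.0036) and 0.903 (rho = 0.827, adjusted p = 0.021). Fkbp5 with Sgk1 gave -0.832 (rho = -0.804, adjusted p = 0.021) at 7 days and -0.798 (rho = -0.845, adjusted p = 0.064) at 14 days, where it missed the threshold. Of the 12 pairs, 2 passed at both times (Fkbp5 with Zbtb16 and Sgk1 with Errfi1), 3 at 7 days only, 2 at 14 days only and 5 at neither, and all 12 had the same sign at both. The 5 were Nr3c1 with Sgk1, Errfi1, Zbtb16 and Hsd11b1, and Zbtb16 with Errfi1. Outside the 12, Mt2 with Hsd11b1 passed at 7 days (r = -0.858, rho = -0.874, adjusted p = 0.015), and r was -0.168 at 14 days (adjusted p = 0.72).

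Mt1 and Mt2 fell into 2 clusters of libraries, so their pooled correlation is not read as such. The split was made at the widest gap in Mt1 on the log2 scale. Each cluster was thus chosen by 1 of the 2 genes correlated in it. Among the 17 libraries with Mt1 between 216 and 414, r was 0.795 (rho = 0.775, adjusted p = 0.035 by permutation, over the 92 correlations within clusters). Only 1 of the 17 is from 14-day Ang II, and that library adds no spread once its group mean is removed. Among the 6 libraries with Mt1 between 59.0 and 136, r was 0.886 (rho = 0.943), with an adjusted p of 0.54 by permutation. Permutation within groups allows only 48 arrangements of these 6 libraries and no p below 0.0208, so this test could not have passed. Over the 23 libraries no other pair with Mt1, Mt2, Cdkn1a or Tsc22d3 passed, though Mt2 with Hsd11b1 did at 7 days alone.

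**Figure D4:**
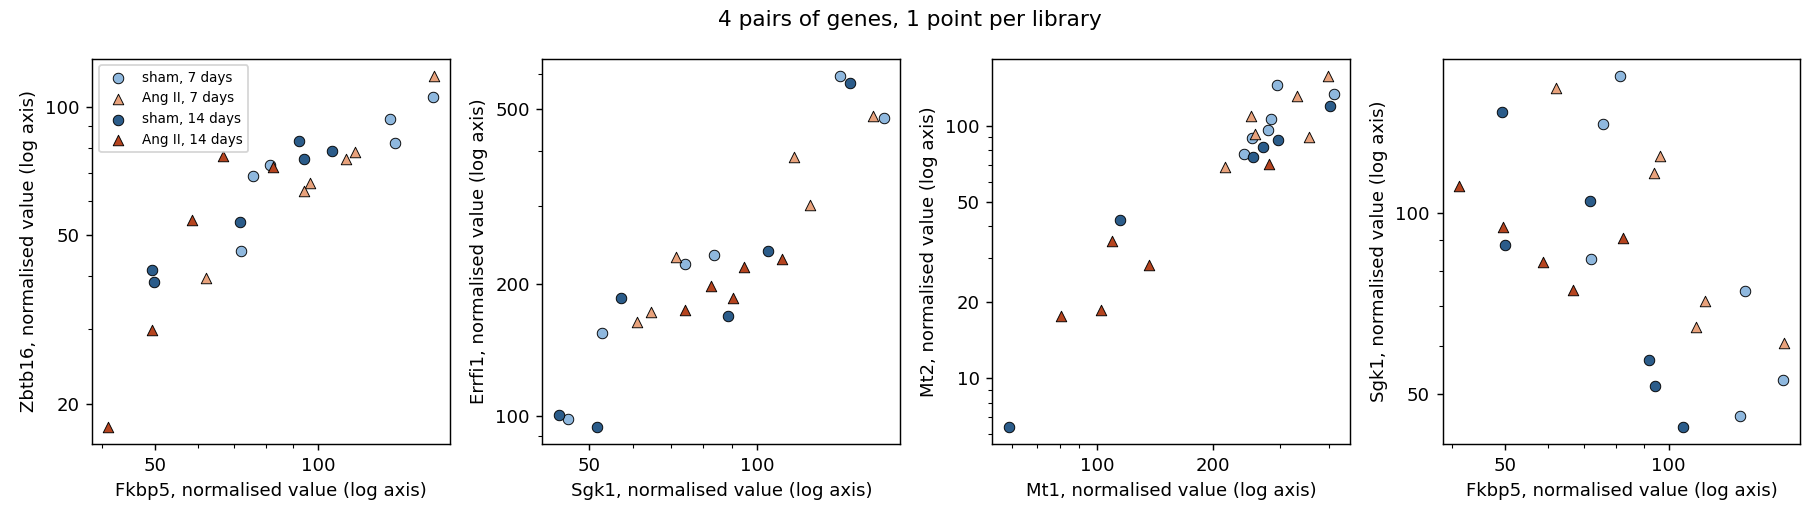
Normalised values of 4 pairs of genes, 1 point per library, both axes logarithmic, with circles for sham and triangles for Ang II. Points of all 4 groups lie along the rising bands of Fkbp5 with Zbtb16 and Sgk1 with Errfi1 and the falling band of Fkbp5 with Sgk1, and the 6 libraries with Mt1 at 136 or below are all from 14 days.

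Over all tested genes, those with the likest pattern to each member across the 23 libraries were taken by Spearman's rho, as a description. For Fkbp5 they were Zbtb16 (0.874), Egfr (0.868), the EGF receptor gene, and Angptl4 (0.829), itself a known glucocorticoid target. For Sgk1 they were Apold1 (0.918), Errfi1 (0.884) and Csrnp1 (0.874), and Errfi1 had the same Csrnp1 (0.871) and Apold1 (0.859) after Sgk1. Mt2 was nearest to Mt1 (0.859), Klf15 (0.85), a transcription factor induced by glucocorticoids, and Tmem252 (0.841). Cdkn1a was nearest to Rcan1 (0.822), Dapk1 (0.796) and Cyth1 (0.795), and Nr3c1 to Flrt2 (0.895), Vps13a (0.89) and Ddx60 (0.882). Hsd11b1 and Tsc22d3 had weaker neighbours, led by Rdx (0.773) and Hspb11 (0.787). These values include differences between groups, and the libraries share their depth and tissue makeup.

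Immediate early genes, which are induced within minutes by growth factors, stress and tissue handling, separated the libraries too. The sum of 13 such genes lay between 214 and 433 in 12 libraries and between 683 and 1485 in 11. The upper cluster held 2 of 6 libraries of 7-day sham, 1 of 6 of 7-day Ang II, 3 of 6 of 14-day sham and all 5 of 14-day Ang II. At 14 days all 13 genes had a positive log2 difference with a median of 0.91, and 1 was called, Ier3 (0.62 ± 0.16, adjusted p = 0.0247). In sham at 14 days the 3 upper libraries (1, 2 and 5) had Sgk1 at 147, 105 and 88.5 and Fkbp5 at 49.4, 71.8 and 49.9. The 3 lower libraries had Sgk1 at 51.6, 56.9 and 44.1 and Fkbp5 at 94.3, 92.1 and 106.

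Because of the clusters the correlations were repeated inside each, with adjustment over the 92 and by permutation. All 12 pairs kept their sign in both clusters, though some came near 0. Nr3c1 with Errfi1 was at 0.129 in the lower and 0.076 in the upper, and Fkbp5 with Nr3c1 at -0.519 and -0.102. Sgk1 with Errfi1 was at r = 0.879 (rho = 0.839, adjusted p = 0.035) in the lower and 0.796 (rho = 0.636, adjusted p = 0.23) in the upper, and Fkbp5 with Zbtb16 was at 0.973 (rho = 0.874, adjusted p = 0.038) and 0.891 (rho = 0.927, adjusted p = 0.061). Fkbp5 with Sgk1 no longer passed in either, at -0.724 (rho = -0.748, adjusted p = 0.1) and -0.406 (rho = -0.336, adjusted p = 0.7), and Nr3c1 with Sgk1 was at 0.235 and 0.246 (adjusted p = 0.82 and 0.8). In the lower cluster 4 of the 45 pairs passed, which besides the 2 named were Mt1 with Cdkn1a (r = 0.843, adjusted p = 0.048) and Mt2 with Hsd11b1 (-0.821, adjusted p = 0.035), and in the upper cluster 0 passed. In the upper cluster permutation allows 1440 arrangements and no p below 0.000694. Its 1 library of 7-day Ang II adds no spread once its group mean is removed.

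The 10 genes were set beside measures from outside the set, 80 relations in all with adjustment over them, a comparison added after the data had been seen. With the immediate early sum, Sgk1 had r = 0.832 (rho = 0.846, adjusted p = 0.16) and Errfi1 0.842 (rho = 0.832, adjusted p = 0.16) within the lower cluster, and 0.13 and 0.1 within the upper (adjusted p = 0.91 and 0.84). Without the 2 farthest libraries of the lower cluster r was 0.771 and 0.765. The 1 relation that passed was Hsd11b1 with the sum of 6 fibroblast markers (r = 0.791, rho = 0.707, adjusted p = 0.028), and r was 0.65 without the 2 farthest libraries. It passed in 14 of the 23 fits that left out 1 library, with r between 0.648 and 0.838. The lowest r was without library 3 of 14-day Ang II, which had the lowest Hsd11b1, 34.2, and a fibroblast sum of 3044 where the other infused libraries of that day had 4079 to 5791. Of the 6 markers, Col14a1 (log2 difference 0.56 ± 0.11, adjusted p = 0.00502), Pi16 (0.77 ± 0.17, 0.0122) and Lum (0.74 ± 0.21, 0.0421) were higher with Ang II at 14 days. Pdgfra (0.02 ± 0.08), Dpt (-0.14 ± 0.14) and Dcn (-0.04 ± 0.16) did not pass (adjusted p = 0.886, 0.561 and 0.900). Dcn was the most abundant of the 6, at 2461 ± 714 with Ang II and 2446 ± 231 in sham. The part of tissue makeup in the Hsd11b1 difference was not tested. None of the 10 genes passed with the adipocyte sum, the acinar sum, the abundant transcript AY036118 or the library size. AY036118 took 0.0431% of reads in library 2 of 14-day Ang II and 36.2% in library 5 of 7-day sham. The latter had 4471038 reads and the highest Errfi1, 594. Library 6 of 7-day sham, with the highest Sgk1, had 5413338 reads and 20.2% AY036118. With Errfi1, AY036118 had r = 0.484 (adjusted p = 0.38 by permutation).

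Cdkn1a was low at 14 days in the libraries where Arntl was low. Arntl, the core clock activator also called Bmal1, lay between 20.9 and 31.7 in all 12 libraries of day 7. In 14-day sham it was 32.8, 26.6, 31.7 and 25.7 in libraries 1, 3, 4 and 6 but 5.24 and 11.4 in libraries 2 and 5, the libraries with the low Cdkn1a values of 9.50 and 10.7. In 14-day Ang II it was 17.6 in library 1, where Cdkn1a was 24.4, and between 2.46 and 5.77 in the other libraries, where Cdkn1a was between 8.69 and 14.9. The 11 libraries of day 14 fell into separate clusters of Arntl, so no pooled correlation is given there and the relation was not tested. Within day 7 Cdkn1a and Arntl gave r = 0.296 (rho = 0.378, adjusted p = 0.84 by permutation, n = 12), and r was 0.816 without the 2 libraries farthest in Arntl. Leaving out these 2 libraries also moved r with Arntl for other genes. It went from -0.074 to 0.626 for Fkbp5 and from 0.045 to 0.707 for Zbtb16. For Sgk1 it went from -0.09 to -0.514 and for Nr3c1 from 0.13 to -0.505. Mt1 went from -0.046 to 0.366, Errfi1 from -0.027 to -0.352 and Mt2 from -0.378 to 0.286. The r that had been largest came near 0, from 0.474 to 0.019 for Hsd11b1 and from -0.49 to -0.034 for Tsc22d3. The values without these libraries were not tested.

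Of 15 clock genes tested, 6 were higher and 3 lower with Ang II at 14 days and 0 were called at 7 days. Per3, a clock repressor, was 58.97 and 63.62 in libraries 2 and 5 of 14-day sham and between 15.7 and 28.3 in the other sham libraries of that day, beside 49.1 to 142 in the infused libraries. In the same 2 sham libraries Mt1 was 403 and 59.0. The hour at which each artery was taken is not in the labels, so treatment and time of day cannot be told apart here.

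**Figure D5:**
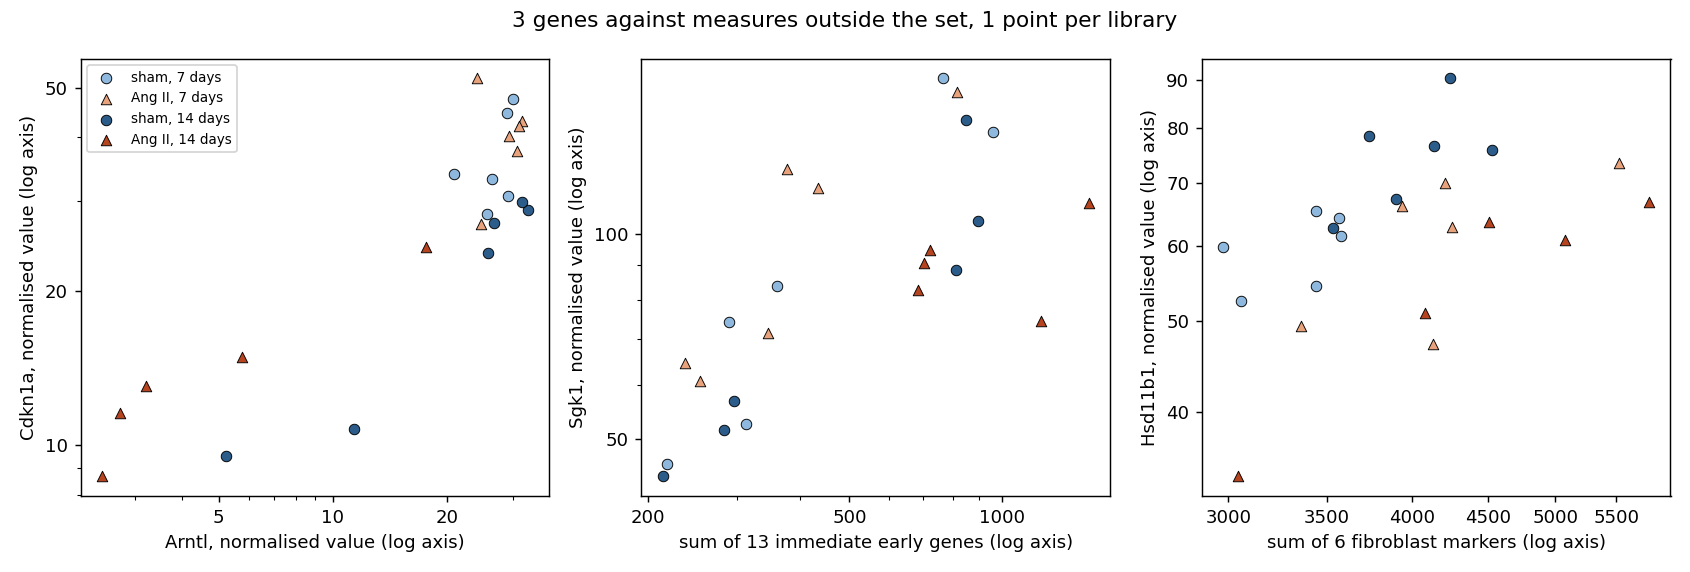
Cdkn1a against Arntl, Sgk1 against the sum of 13 immediate early genes, and Hsd11b1 against the sum of 6 fibroblast markers, as normalised values with 1 point per library on logarithmic axes. Libraries with Arntl under 12 have Cdkn1a under 15, the immediate early sum has a gap between 433 and 683, and the lowest Hsd11b1 value, 34.2, is the infused library with a fibroblast sum of 3044.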

How the data were processed

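Total RNA libraries were made from 500 ng of RNA with a stranded kit, per the labels' protocols. The authors deposited 1 table of normalised values, that is, a signal for each gene in each library. The submitters' processing notes name mm10, STAR 2.3.1, HTSeq 0.5.3p3, edgeR 3.6.8, bcl2fastq 1.8.4 and R 3.2.3, without saying what each did; how the factors, annotation and strand were set is not given in the sources used here. Every value above 0 was a whole multiple of its library's smallest value (100% of 460324 values, within 0.001 read), so reads could be recovered by taking that value as 1 read.

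limma 3.58.1 (trend, robust; R 4.3.3) was fitted to log2(value + 0.5) for genes with a value of at least 1 in at least 5 libraries, with 4 group means over 23 libraries and 19 residual degrees of freedom. The p-values were adjusted by Benjamini-Hochberg over 14896 genes, and genes were called at an adjusted p under 0.05. Had the table held raw counts, the design would have used edgeR, and edgeR 4.0.16 and DESeq2 1.42.0 on recovered reads were alternatives instead. edgeR called 110 genes at 7 days and 1099 at 14 days. With the pseudocount, fold changes of low genes come out too small. No label states that the libraries came from separate litters or batches, so p-values and intervals measure the spread between these libraries. That spread was pooled for each gene over the 4 groups, though groups differed in it. For Mt2 the SD on the log2 scale was 0.345 (sham) and 0.422 (Ang II) at 7 days. At 14 days it was 1.507 and 0.800, so the SE at 7 days also reflects the 14-day libraries.

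Correlations used Python 3.11.15 and numpy 2.4.6, with 100000 permutations within groups (10000 where a library was left out). The genes named are the 10 members, up to 4 genes per list and time by smallest p with every called gene of a list that has 5 or fewer, and the 3 genes most like each member by Spearman's rho. Members and lists were chosen with earlier results of these data known. The clusters by Mt1 and by the immediate early sum, the relations to outside measures and the correlations by time were added after the data had been seen. Positions are from GENCODE M21 on GRCm38 and promoters from RefSeq GRCm38.p6. Windows were searched for 8 of the 10 genes, and none for Zbtb16 or Nr3c1. The search skipped windows of any of the 10 genes on chromosome 18, where Nr3c1 lies. Whether RefSeq holds a window for Nr3c1 is therefore not known from this search.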

Additional observations from a re-analysis of the deposited data

Results flagged for a closer look

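In 4 of 40 gene and group combinations, 1 library stood far from the rest of its group, the gap to its nearest neighbour being a large part of the group's range. If values are normally distributed, chance gives about 1 in 20, which is 2 of 40. The gap was taken on the normalised values and not on the log2 scale of the fits. All 4 libraries were the highest of their group. Library 5 of 14-day sham was not flagged for Mt2, at 6.42 with the next at 42.3 and the highest at 120. Flags on the log2 scale were not computed. Tsc22d3 in 7-day Ang II was 306 in library 1, with the next at 256 and the lowest at 230 (gap over range 0.654). Mt1 in 7-day sham was 414 in library 4, with the next at 294 and the lowest at 241 (0.692). Mt1 in 14-day Ang II was 280 in library 2, with the next at 136 and the lowest at 80.7 (0.721). Errfi1 in 14-day sham was 572 in library 1, with the next at 238 and the lowest at 94.5 (0.70), and that library was also the highest of its group for Sgk1, at 147.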

How the results depend on the processing

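Calls among the 10 genes stayed at 0 for Ang II against sham at 7 days, for the difference of the responses and for the sham groups under every alternative run. At 14 days the count was 1 with TMM scaling, 1 with edgeR and 1 with DESeq2, and 0 to 1 when a library was left out. No share over all genes is given for these fits. Since none of the 10 genes passed in the main fit, sign changes could only fall on differences that had not passed. At 7 days these were Mt2 with upper-quartile scaling (0.006), Nr3c1 with TMM without AY036118 and acinar markers (0.000), Nr3c1 and Errfi1 with edgeR (-0.005 and -0.032) and DESeq2 (-0.007 and -0.044), and Fkbp5, Nr3c1 and Errfi1 with the number series as a term (0.021, -0.02 and -0.031). Within series 27 they were Tsc22d3, Zbtb16, Mt2 and Hsd11b1 (0.152, 0.101, 0.261 and -0.177), and within series 28 Fkbp5, Sgk1, Cdkn1a, Nr3c1 and Errfi1 (0.162, -0.481, -0.003, -0.079 and -0.598). At 14 days Errfi1 was -0.194 with edgeR, -0.193 with DESeq2, -0.106 with the series term and -0.106 within series 26. Between sham groups, Sgk1 and Errfi1 were 0.505 and 0.009 within series 27, and Fkbp5, Zbtb16 and Mt1 were 0.431, 0.153 and 0.010 within series 28. The series are the leading digits of the library numbers, whose meaning is not given, and the cause of these changes was not tested. With the series as a term, Mt2 at 14 days was -1.40 (adjusted p = 0.30).

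Of 580 differences with a library left out, 525 kept sign and side of the threshold, 52 changed sign and 3 newly passed (Hsd11b1 in 2 and Mt2 in 1). With a library left out, log2 differences at 7 days ran from -0.16 to 0.117 for Fkbp5, -0.097 to 0.028 for Tsc22d3, -0.265 to 0.048 for Zbtb16, -0.029 to 0.345 for Sgk1, -0.061 to 0.129 for Mt1, -0.128 to 0.11 for Mt2, -0.048 to 0.048 for Nr3c1, -0.026 to 0.1 for Hsd11b1 and -0.144 to 0.373 for Errfi1. Errfi1 at 14 days ran from -0.087 to 0.431, and Sgk1 between sham groups from -0.362 to 0.031. The difference of responses ran from -0.514 to 0.006 for Zbtb16, -0.084 to 0.309 for Sgk1 and -0.266 to 0.312 for Errfi1. Pairs of genes past the threshold numbered 12, 11 with TMM, 14 with the series removed and 9 to 16 with a library left out, and relations to outside measures 0 to 1. No paired analysis was possible because the labels give each library a number of its own that no other group shares.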
